A study of Drosophila melanogaster with 76 samples.

Results

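IntS11 was mapped by ChIP-seq in wild-type Drosophila melanogaster embryos labelled 2.5–3 h and 1–1.5 h, with 2 peak lists per stage, and the results below describe where IntS11 peaks lay at each stage. These 4 lists were chosen by their sample titles among 40 lists of the series. The other lists used here come from embryos of the same 2 stages, labelled Mutant or WT in an experiment whose titles carry the words IntS11 mislocalized for both genotypes, with antibodies to Zelda, GAF, RNA polymerase II (Pol II) and its form phosphorylated on serine 5 of the repeated tail (pSer5), and from wild-type larvae labelled 48AEL. The labels name no strain, allele or driver for the wild-type embryos, and embryos of a collection were not separated by tissue or cell type. Chromatin was cross-linked with formaldehyde and immunoprecipitated in duplicate, and whether the duplicates came from separate embryo collections is not stated. The p-values below therefore measure only the spread between lists, which may be technical.

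IntS11 is the endonuclease subunit of Integrator, a complex that travels with Pol II, cleaves the 3′ ends of small nuclear RNAs and ends transcription of paused Pol II close to promoters by cutting the nascent RNA. In the fly embryo the earliest zygotic genes are transcribed during the rapid nuclear divisions, before the broad activation of the zygotic genome that accompanies cellularization. Zelda and GAF are DNA-binding factors that open chromatin for this transcription, and pSer5 marks Pol II at initiation and in early elongation.

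The 2.5–3 h lists held more IntS11 peaks than the 1–1.5 h lists, and the peaks covered more DNA. They numbered 6065 and 6552 at 2.5–3 h, against 1410 and 1276 at 1–1.5 h, so the stages did not overlap. The means were 6308.5 ± 344 and 1343 ± 94.8 peaks (SD, n = 2 lists each), a ratio of 4.70 (log2 2.23, two-sided exact permutation p = 0.333, the smallest p that 2 lists against 2 allow). Peaks covered 5.58 and 6.34 Mb at 2.5–3 h and 0.995 and 0.908 Mb at 1–1.5 h, a 6.26-fold ratio of geometric means (log2 2.65, exact permutation p = 0.333). The median peak measured 680 and 715.5 bp at 2.5–3 h and 531.5 and 536.5 bp at 1–1.5 h, and peaks over 2000 bp made up 7.25% ± 0.624 and 4.14% ± 0.240 of a list (SD, n = 2 each). The lists hold positions without read counts or peak heights, so the depth behind them is unknown, and a difference in depth or in the yield of the immunoprecipitation cannot be told apart from a difference in binding. When each list was reduced to its 1276 longest peaks, the number of the shortest list, peaks at 2.5–3 h still covered more DNA (log2 ratio 1.55).

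**Figure D1:**
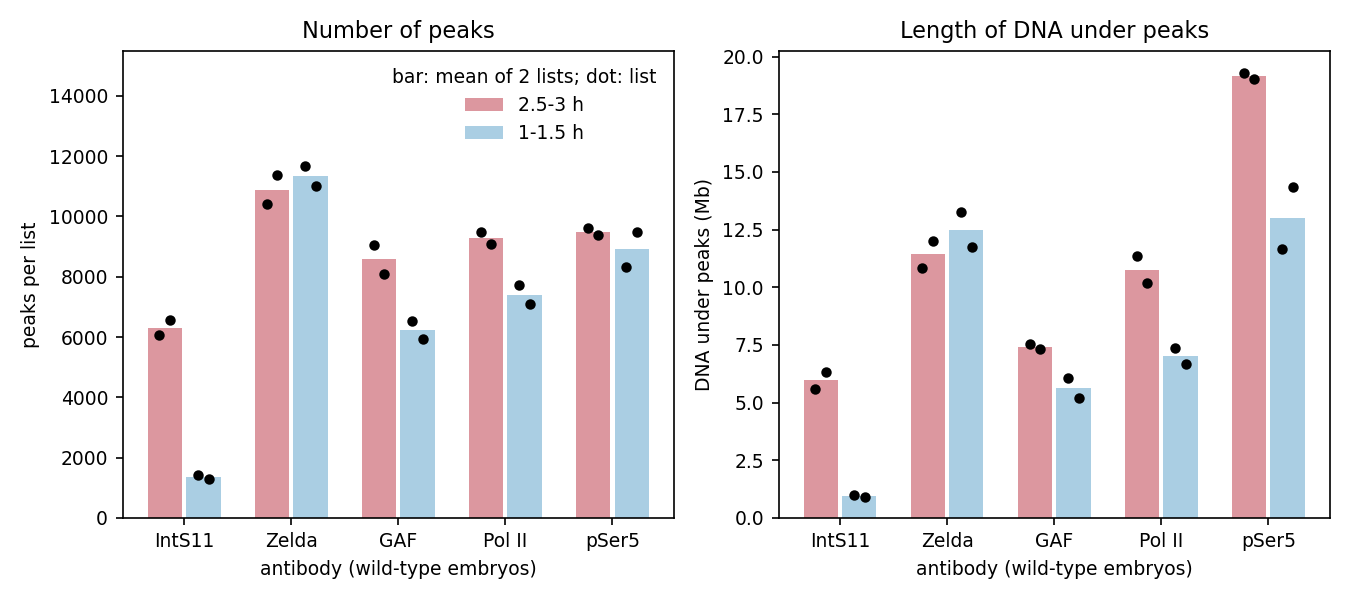
Number of peaks per list (left panel) and megabases of DNA under them (right panel) for 5 antibodies in wild-type embryos, with 2.5–3 h bars left of 1–1.5 h bars; bars are means of 2 lists and dots are lists. The IntS11 bars have the largest ratio between the stages in both panels, with 6065 and 6552 peaks at 2.5–3 h against 1410 and 1276 at 1–1.5 h.

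The other antibodies differed less between the stages. Zelda lists held 10890.5 ± 667 peaks at 2.5–3 h and 11342 ± 479 at 1–1.5 h, a ratio of 0.960 (SD, n = 2 lists each). Pol II lists held 9272.5 ± 285 and 7408.5 ± 442 peaks at these stages, a ratio of 1.25, and GAF lists 8573.5 ± 691 and 6246 ± 420, a ratio of 1.37. For pSer5 the means were 9493.5 ± 155 and 8920 ± 820 peaks, a ratio of 1.07. The log2 ratio of IntS11 exceeded the mean of the other 4 by 2.03 for peak number and by 2.28 for covered length. A two-sided exact permutation of the stage within antibodies gave p = 0.330 and p = 0.332 over 7776 relabelings. Relabeling IntS11 alone reverses the difference. With so large an IntS11 ratio, nearly every relabeling that keeps or exchanges the IntS11 stages reaches the observed size. The p therefore stays near 0.333, the smallest for 2 lists against 2, and this test could not decide.

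Duplicate lists shared most of their peaks, more so at the later stage. At 2.5–3 h 85.0% and 77.0% of a list's peaks overlapped the other list by at least 1 bp, and at 1–1.5 h 62.3% and 68.7%. Peaks shared by the 2.5–3 h lists had a median of 755 and 842 bp, and unshared ones 403 and 435 bp. Peaks found in a single 1–1.5 h list were mostly present later: 71.8% of those of replicate 1 and 78.2% of those of replicate 2 overlapped peaks of both 2.5–3 h lists.

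IntS11 sites of the early stage were nearly a subset of the later ones. Merged peaks present in both lists of a stage gave 4906 regions at 2.5–3 h and 863 at 1–1.5 h. Of the 4906, 3619 were gained, with no peak in either 1–1.5 h list (73.8%), 724 were kept, with a peak in all 4 lists (14.8%), and 563 had a peak in 1 of the early lists. Of the 863 regions at 1–1.5 h, 757 were kept (87.7%), 15 had a peak in 1 of the later lists and 91 were lost (10.5%). Counts of gained and lost regions follow the lengths of the lists. With the 1276 longest peaks of each list, 304 regions were gained and 309 lost, 33.1% of the 2.5–3 h and 37.7% of the 1–1.5 h regions. Shared DNA between single lists made up 12.2% to 14.3% of the length covered at 2.5–3 h and 80.4% to 85.0% of that covered at 1–1.5 h.

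The location of peaks relative to genes also differed. A peak counted as at a gene end when it overlapped the 500 bp either side of an annotated gene start or end, both ends being used because the gene table gives no strand. Such peaks made up 61.6% ± 0.257 of a list at 2.5–3 h and 48.1% ± 2.39 at 1–1.5 h (SD, n = 2 each, exact permutation p = 0.333). Peaks between genes made up 10.8% ± 0.218 and 21.8% ± 0.0958, and peaks inside genes 27.6% and 30.1%. Gained regions lay at a gene end in 67.3% of cases, kept regions in 62.0% and lost regions in 2 of 91 cases. The small chromosome 4 had 43 regions at 2.5–3 h, of which 41 were gained, and on X 79.0% of 587 regions were gained.

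Where IntS11 was present at both stages, its peaks were longer at 2.5–3 h. In kept regions the longest peak, averaged over the lists of a stage, had a median of 1550 bp at 2.5–3 h and 634.75 bp at 1–1.5 h (724 regions). Both 2.5–3 h peaks exceeded both 1–1.5 h peaks in 628 regions (86.7%) and were shorter than both in 25 (3.45%), and in 71 the stages overlapped. The median log2 ratio was 1.12, 414 regions were more than 2-fold longer and 19 more than 8-fold. In 49 kept regions each 1–1.5 h list held at least 2 separate peaks. Within the 2.5–3 h lists kept regions were also longer than gained ones. Gained regions had a median merged length of 863 bp and kept regions of 1761.5 bp. A region counted as kept when it met a peak of each 1–1.5 h list, and these early peaks need not meet each other. Longer later regions meet early peaks more readily by position alone, so the rule favours them among the kept. That part of the length differences, and of the ratios above, was not tested. Of the 25 regions whose peaks were shorter later, 11 lay on chromosome 4, on Y or within 2 Mb of the centromere end of an arm, against 39 of all 724 kept regions (5.39%).

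**Figure D2:**
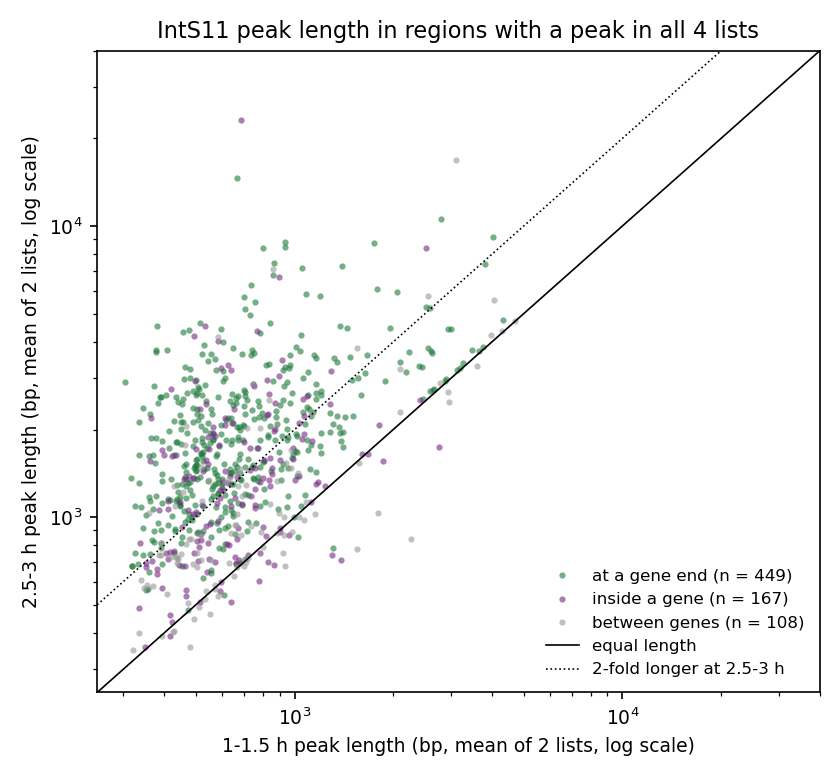
IntS11 peak length in the 724 regions with a peak in all 4 lists, at 2.5–3 h (vertical axis) against 1–1.5 h (horizontal axis), both in bp on log scales as means of 2 lists; each point is a region, coloured by location. Most points lie above the line of equal length, and 414 lie above the dotted 2-fold line.

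Among genes with IntS11 at a gene end at both stages, the longest peaks at a gene end at 2.5–3 h were those of Delta, which encodes the ligand of Notch (3R 19302731–19326217, dm6). Its lower-numbered end lay under peaks of 14315 and 14880 bp at 2.5–3 h and had no peak within 500 bp at 1–1.5 h. Each 1–1.5 h list held 1 shorter peak elsewhere in that stretch, of 671 and 666 bp. These early peaks did not overlap, lying 4.589–5.26 kb from that end in replicate 1 and 7.638–8.304 kb in replicate 2. Its higher-numbered end had peaks of 1472 and 1696 bp at 2.5–3 h and of 524 and 917 bp at 1–1.5 h. Peaks covered 91.9% and 90.8% of the gene at 2.5–3 h and 4.86% and 6.64% at 1–1.5 h, so nearly the whole gene was occupied at the later stage.

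At other genes too the later peaks covered more of the gene. At trbl, whose product delays mitosis in the mesoderm (3L 20396288–20401609), peaks measured 8008 and 8808 bp at 2.5–3 h and 791 and 807 bp at 1–1.5 h (log2 3.40), and covered 100% of the gene in both 2.5–3 h lists and 14.7% and 18.9% at 1–1.5 h. At kis, a chromodomain remodeler of the Trithorax group (2L 210735–250823), they measured 7597 and 6025 bp at 2.5–3 h and 420 and 530 bp at 1–1.5 h, and the longest early peaks under the same later peak measured 715 and 1007 bp. Peaks covered 48.2% and 52.6% of kis at 2.5–3 h and 6.73% and 6.08% at 1–1.5 h. At phyl, an adaptor for protein degradation in the developing nervous system (2R 14427336–14432337), they measured 4683 and 4102 bp at 2.5–3 h and 448 and 349 bp at 1–1.5 h, with 448 and 502 bp as the longest early peaks of the region. The values of bib, a neurogenic gene, come from different ends, with 2194 and 10115 bp at the higher-numbered end at 2.5–3 h, where 1–1.5 h lists had no peak, and 1220 and 2398 bp at 2.5–3 h against 532 and 510 bp at 1–1.5 h at the lower-numbered end. Over all 655 kept genes the longest peaks of the stages lay over each other in 90.2%.

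Several of the longest peaks spanned neighbouring genes. A peak of 10413 and 10776 bp at 2.5–3 h covered ends of Pgk, a glycolytic enzyme gene, Bacc, HemK2 and Snapin, where 1–1.5 h peaks measured 1493 and 1859 bp at Pgk and 3717 and 1859 bp at Bacc. The same later peak of replicate 2 reached Tnpo-SR, which had no early peak and 1016 bp in replicate 1. At chic, which encodes the actin-binding protein profilin, and the adjoining eIF4A, a translation initiation helicase gene, peaks measured 7070 and 7756 bp at 2.5–3 h and 1691 and 5780 bp at 1–1.5 h. These early lists disagree with each other, and the later values exceed both. At wech, a gene for muscle attachment, lengths were 8965 and 9314 bp at 2.5–3 h and 1729 and 1206 bp at its ends at 1–1.5 h, when longer peaks of 4561 and 3507 bp lay elsewhere under the same later peak. Long peaks of 8744 and 8919 bp at CG33229 and of 7801 and 9738 bp at CG34220 stood against 1240 and 627 bp and against 1708 and 1796 bp at 1–1.5 h. The longest kept region lay at hth, the homeodomain cofactor of Hox proteins, with peaks of 12353 and 33923 bp at 2.5–3 h and 711 and 663 bp at 1–1.5 h, where the early lists held 5 and 3 separate peaks.

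**Figure D3:**
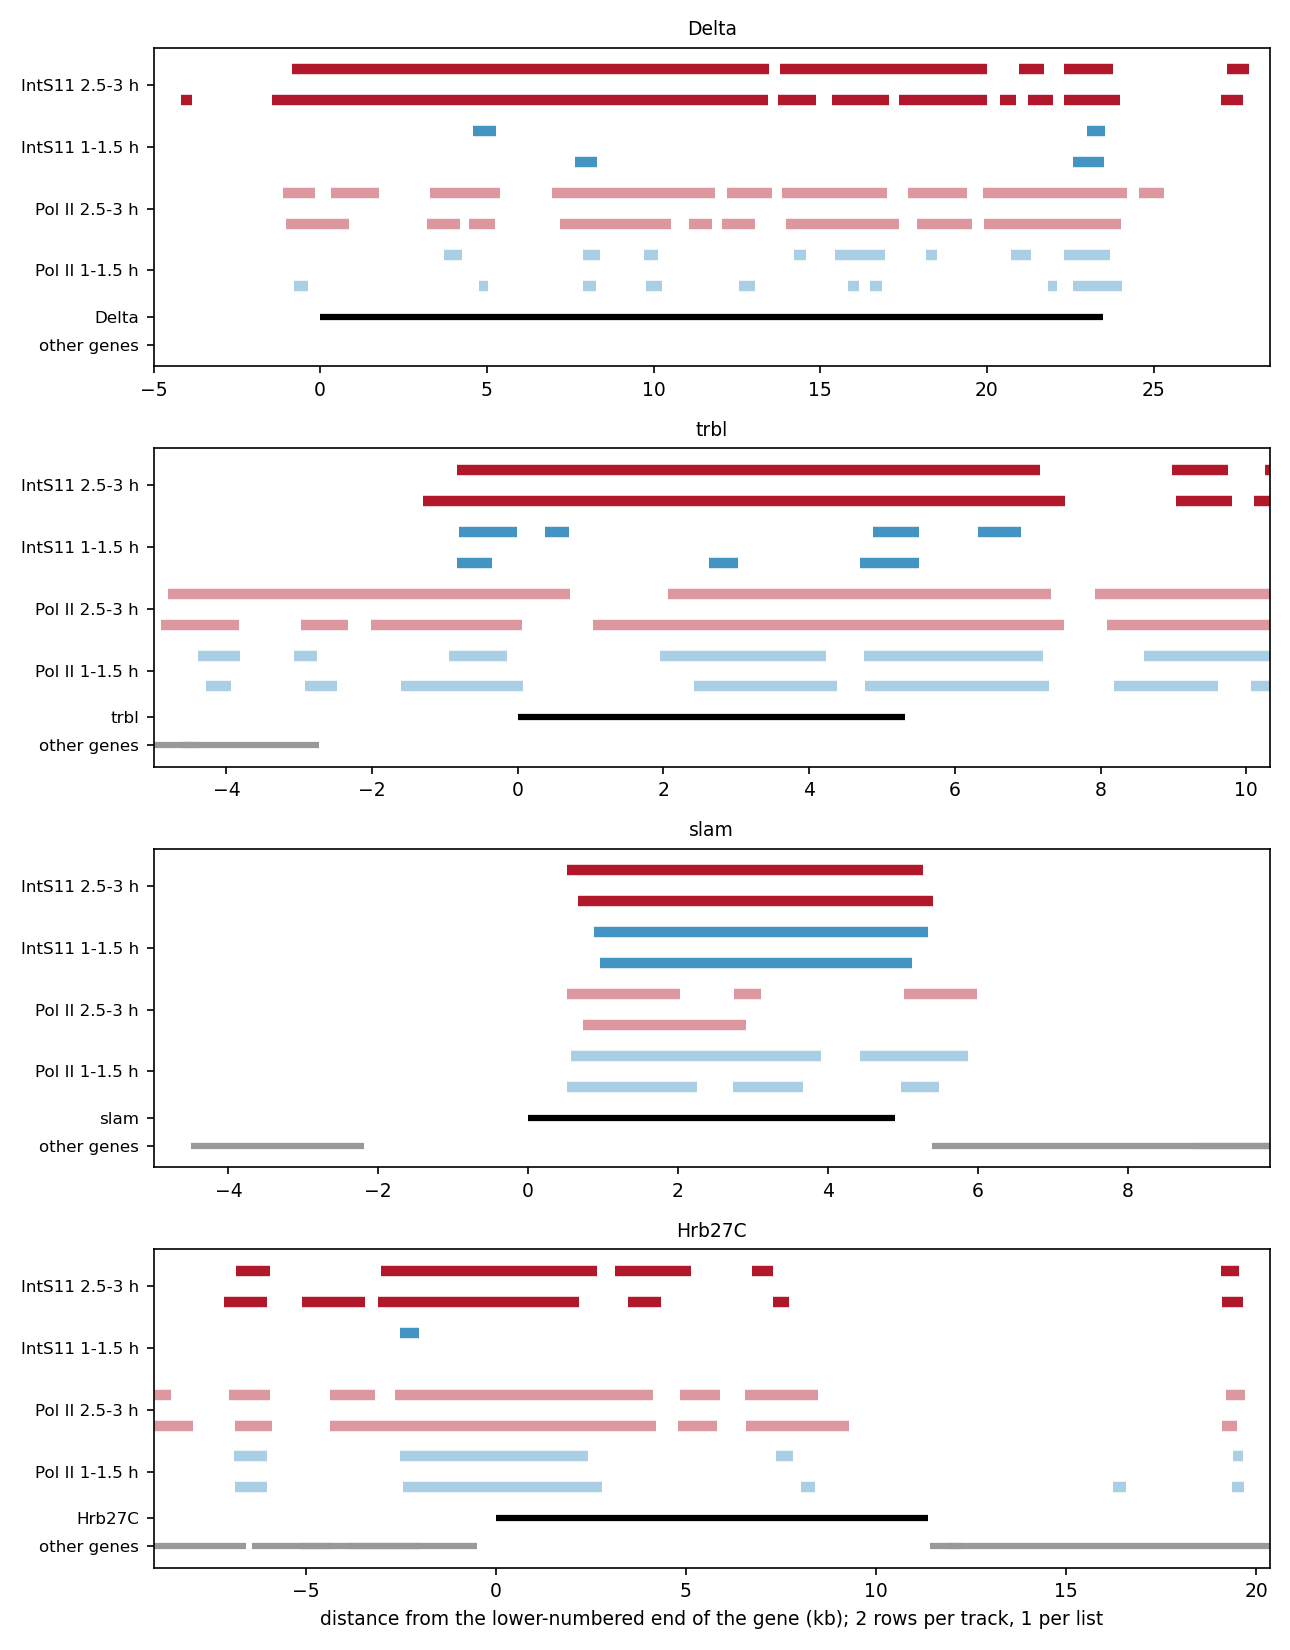
Called peaks (bars) of IntS11 and Pol II at Delta, trbl, slam and Hrb27C in wild-type embryos, 2.5–3 h tracks (red) above 1–1.5 h tracks (blue) of each antibody, 1 row per list; the horizontal axis is distance in kb from the lower-numbered end of the gene. At Delta and trbl the 2.5–3 h peaks spread over the gene, at slam they have nearly the extent of the 1–1.5 h peaks, and at Hrb27C Pol II at 1–1.5 h lies where IntS11 lies in both 2.5–3 h lists.

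By gene, IntS11 lay at an end of 5193 of 14227 genes in both 2.5–3 h lists (36.5%) and of 661 in both 1–1.5 h lists (4.65%). Of these, 655 genes were kept (4.6%), 3874 were gained (27.2%) and 1 was lost (0.00703%), Tsp3A, a tetraspanin gene with peaks of 421 and 702 bp at 1–1.5 h. A further 664 genes had both later lists and 1 of the early ones. Of the gained genes, 3590 lay on gained regions only, while 108 had an end on a region that was itself kept and 72 had peaks of both early lists within the gene away from its ends, as did HnRNP-K. Genes without any IntS11 had a median length of 1726.5 bp, gained genes 2651 bp and kept genes 3161 bp. With the short histone genes left out, the median of kept genes was 4596 bp. Among genes over 2000 bp, both ends were bound at 2.5–3 h in 15.9% and 17.7% of gained and in 38.6% and 42.7% of kept genes. Only 4.88% of the kept ones had both ends bound in either 1–1.5 h list.

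Patterning genes that the early zygotic embryo transcribes carried IntS11 at both stages more often than all genes, of which 4.6% did. The counts of the gene lists are descriptions, with no test. Among trunk gap genes, which divide the embryo into broad domains, 4 of 5 were kept and 1, gt, was gained. Kr, a zinc-finger repressor (2R 25226611–25231394), had 2191 and 2240 bp at 2.5–3 h and 1304 and 1544 bp at 1–1.5 h. At kni, a nuclear receptor gene, peaks measured 4383 and 4698 bp against 1073 and 1672 bp, and at hb, a target of the Bicoid gradient, 1824 and 2843 bp against 743 and 737 bp. In each of these 3 genes both later peaks were longer than both early ones. Of 6 terminal and head gap genes, slp1 and hkb were kept, btd was gained, and tll, ems and oc had a peak in 1 early list only.

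Pair-rule genes, which set the stripes, were kept in 7 of 9 cases. Peaks at ftz (3R 6864324–6866244) measured 3106 and 2837 bp at 2.5–3 h and 358 and 559 bp at 1–1.5 h (log2 2.70), and covered 100% of the gene later. At hry they measured 2321 and 3537 bp at 2.5–3 h and 785 and 938 bp at 1–1.5 h. The pair-rule genes run and slp2 were gained, with 400 and 466 bp and with 744 and 717 bp at 2.5–3 h. At opa, which acts as a late pioneer factor, a gained region that ran through the gene past its higher-numbered end held peaks of 4994 and 7014 bp, and peaks covered 87.2% and 93.4% of the gene at 2.5–3 h, against 0.885% and 0.920% at 1–1.5 h. Segment polarity genes were kept in 7 of 9 cases and gained in none. At ptc, the Hedgehog receptor gene, peaks measured 2623 and 2779 bp at 2.5–3 h and 658 and 753 bp at 1–1.5 h, and at nkd, an inhibitor of Wingless signalling, 3283 and 3287 bp against 736 and 962 bp. At mid the stages lay closer, with 1378 and 1398 bp at 2.5–3 h and 972 and 1061 bp at 1–1.5 h.

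Genes of the dorsoventral axis were mixed. In the mesoderm 2 of 8 were kept and 4 gained, in the neurogenic ectoderm 2 and 3 of 9, and in the dorsal ectoderm and amnioserosa 2 and 4 of 14. Of all genes, 4.6% were kept and 27.2% gained. The gained shares of the neurogenic ectoderm (33.3%) and the dorsal ectoderm and amnioserosa (28.6%) lay near that of all genes. The mesoderm repressor sna was kept, with 3001 and 1367 bp at 2.5–3 h and 548 and 1067 bp at 1–1.5 h, while twi, the mesoderm activator, was gained with 457 and 1066 bp. Mef2, a muscle factor gene expressed after twi, was gained with 2090 and 2732 bp, and tin, a heart and visceral muscle gene, with 987 and 1775 bp. At rho, which activates EGF signalling, the stages differed little, with 1044 and 1124 bp at 2.5–3 h and 1019 and 883 bp at 1–1.5 h. At zen, an amnioserosa gene, the later peaks were longer, with 1381 and 2909 bp against 429 and 428 bp.

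Among the cellularization genes slam and Sry-alpha carried long peaks already at the early stage. Of 5 genes, 4 were kept (80.0%, against 4.6% of all genes) and nullo had no peak in any list. At slam, required for growth of the cleavage furrows (2L 6372388–6377284), peaks measured 4750 and 4727 bp at 2.5–3 h and 4459 and 4162 bp at 1–1.5 h, and covered 89.4% and 86.3% of the gene at 2.5–3 h and 82.0% and 80.4% at 1–1.5 h. Its log2 ratio was 0.14. At Sry-alpha, needed for the actin network of the furrows, they measured 4314 and 4561 bp against 3417 and 2476 bp, and at bnk, which restrains basal closure, 1956 and 1840 bp against 951 and 1083 bp. The early peaks of halo were short, with 2002 and 1767 bp at 2.5–3 h and 608 and 735 bp at 1–1.5 h. The median log2 ratio of the 4 genes was 0.75, against 1.45 over kept genes other than histones.

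Sex determination genes were kept in 5 of 10 cases and gained in the other 5, against 4.6% and 27.2% of all genes. The X-linked signal gene upd1 and sc were kept, with 1605 and 1643 bp at upd1 at 2.5–3 h and 355 and 365 bp at 1–1.5 h. Sxl, the switch gene of female development, was gained at its ends with 2782 and 2619 bp, and sisA, another X-linked signal, with 1114 and 1312 bp. Of 16 Notch target and Bearded genes 9 were kept and 5 gained, in the Enhancer of split cluster on 3R and the Bearded cluster on 3L. Their gained share, 31.25%, lay near that of all genes. BobA, a Bearded-family gene that limits Notch signalling, had 3780 and 3721 bp at 2.5–3 h and 595 and 557 bp at 1–1.5 h, when the region held up to 595 and 889 bp. The Hox genes Scr, Ubx and abd-A were kept and Dfd and Antp were gained, of 8 genes, and at abd-A replicate 2 held a peak of 7248 bp at 2.5–3 h against 2112 bp in replicate 1.

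Histone genes were occupied at both stages with little difference in length. Of 111 replication-dependent histone genes, 110 were kept and His3:CG33848 was gained, with a median log2 ratio of 0.09. Peaks covered 62.7% and 64.0% of the locus at 2L 21416953–21541681 at 2.5–3 h and 55.6% and 54.2% at 1–1.5 h. His1:CG33852 lay under peaks of 3834 and 3865 bp at 2.5–3 h and 3764 and 3724 bp at 1–1.5 h. The histone genes are near-identical repeats, where the copy a read came from is uncertain, so their number is not a number of independent sites. Without them 545 genes were kept. Small nuclear RNA genes were kept in 19 of 29 cases (65.5%) and gained in 5 (17.2%), against 4.6% and 27.2% of all genes. Of the gained ones U7, a factor in histone mRNA processing, was 1. Integrator processes the transcripts that Pol II makes from small nuclear RNA genes, such as U1 and U2. All 5 genes of U1 and all 6 of U2 were kept, as were 6 of 7 of U5 and 2 of 3 of U4, while the 3 genes of U6, which RNA polymerase III transcribes, were gained together under 1 peak of 2693 and 2498 bp. The minor spliceosome genes of U11, U12, U4atac and U6atac had no peak in both lists of either stage. At snRNA:U2:38ABb the peak measured 3468 and 3354 bp at 2.5–3 h and 775 and 752 bp at 1–1.5 h, and the same later peak also overlay early peaks of 1425 and 1267 bp at the neighbouring U4 and U5 genes. These genes are also copies of each other, and several share a peak.

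Genes of general cell function were gained at a higher rate than all genes, though they are few among the 3874 gained genes. Of 85 ribosomal protein genes 57 were gained, 8 kept and 10 had a peak in 1 early list. RpL3 was kept, with 2160 and 4515 bp at 2.5–3 h and 688 and 947 bp at 1–1.5 h, and RpL28 was gained with 4072 and 2373 bp. Among 73 mitochondrial ribosomal protein genes 34 were gained and 1 was kept, among 38 proteasome genes 19 and 1, and among 53 translation factor genes 29 and 2. These shares, between 46.6% and 67.1%, stand against 27.2% of all genes gained. Of the 6517 genes with Pol II in both 1–1.5 h lists, however, 54.4% were gained. Among members with such Pol II, 57 of 82 ribosomal protein and 27 of 41 translation factor genes were gained. The counts were 19 of 31 for proteasome and 30 of 53 for mitochondrial ribosomal protein genes. Genes for Pol II subunits and pausing factors were gained in 14 of 23 cases and kept in 4. CycT, the cyclin of the kinase that releases paused Pol II, was kept with 3693 and 3822 bp at 2.5–3 h and 424 and 394 bp at 1–1.5 h, as were Nelf-A and Nelf-E of the pausing factor NELF. Genes of Integrator itself were gained in 4 of 14 cases (28.6%), near the share of all genes, and kept in 1, IntS6. IntS11 had no peak at its ends in any list.

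Genes for hnRNP and other RNA-binding proteins were kept in none of 12 cases and gained in 5 (41.7%), with a peak in 1 early list at 4 more. Over all genes 4.6% were kept and 27.2% gained. These counts use the gene ends: HnRNP-K lay under a kept region, with longest early peaks of 696 and 708 bp away from its ends. Hrb27C, an RNA-binding protein in splicing and mRNA localization (2L 6920704–6932057), had 5675 and 5296 bp at 2.5–3 h and none at its ends at 1–1.5 h, although replicate 1 of 1–1.5 h held a peak outside the gene beyond its lower-numbered end, under the later peak. HnRNP-K, whose peak also covered mir-7, had 5707 and 5744 bp. Of 18 heat shock genes, 5 were gained (27.8%), near the share of all genes, and 2 kept. Hsp83, a chaperone gene, was gained with 3612 and 3669 bp, and the near-identical Hsp70 copies were mixed. Of 16 cell cycle genes, 8 were gained and 4 kept, with stg, the mitotic activator, at 1220 and 888 bp at 2.5–3 h and 330 and 592 bp at 1–1.5 h. Insulator genes were gained in 7 of 13 cases and Polycomb and Trithorax genes in 7 of 14. Of the 260 microRNA genes 33 were gained (12.7%), a lower share than over all genes, and 11 kept (4.23%), near the share of all genes. Among the kept ones was the cluster of mir-309, mir-3, mir-286 and mir-4, which acts in clearance of maternal RNA, with 4961 and 3918 bp at 2.5–3 h and 1066 and 3692 bp at 1–1.5 h, when the region of replicate 1 also held a peak of 2320 bp.

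Few genes of differentiated tissues had IntS11. In both 2.5–3 h lists 2 of 85 larval cuticle genes, 1 of 31 gut enzyme genes and 1 of 11 muscle structural genes had a peak, and in both 1–1.5 h lists none did. Over all genes the shares were 36.5% at 2.5–3 h and 4.65% at 1–1.5 h, so none among 11 or 31 genes at 1–1.5 h lies near the share of all genes. Of 9 neuronal genes 2 had a peak in both 2.5–3 h lists (22.2%): elav was gained, with 1600 and 2129 bp, and brp had 577 and 595 bp and a peak in 1 early list. With the 1276 longest peaks of each list, 9.29% of all genes were bound at 2.5–3 h and 4.47% at 1–1.5 h. In that setting 16 ribosomal protein genes were bound at 2.5–3 h and 7 at 1–1.5 h, 8 and 0 of the RNA-binding protein genes, and 9 and 1 of the heat shock genes. Genes for Pol II subunits and pausing factors had 2 at 2.5–3 h and 3 at 1–1.5 h, and Integrator genes 1 and 1. Trunk gap and cellularization genes had 4 and 4 of 5 each, pair-rule genes 6 and 7 of 9, and segment polarity genes 4 and 6 of 9. With equally many peaks, these 4 lists of patterning and cellularization genes therefore had no more bound members at 2.5–3 h than at 1–1.5 h. Other developmental lists went both ways. Sex determination genes had 7 and 5 of 10, Notch target and Bearded genes 10 and 8 of 16, and dorsal ectoderm and amnioserosa genes 4 and 2 of 14. Terminal and head gap genes had 1 and 2 of 6, neurogenic ectoderm genes 1 and 2 of 9, Hox genes 2 and 3 of 8, and mesoderm genes 2 and 2 of 8.

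**Figure D4:**
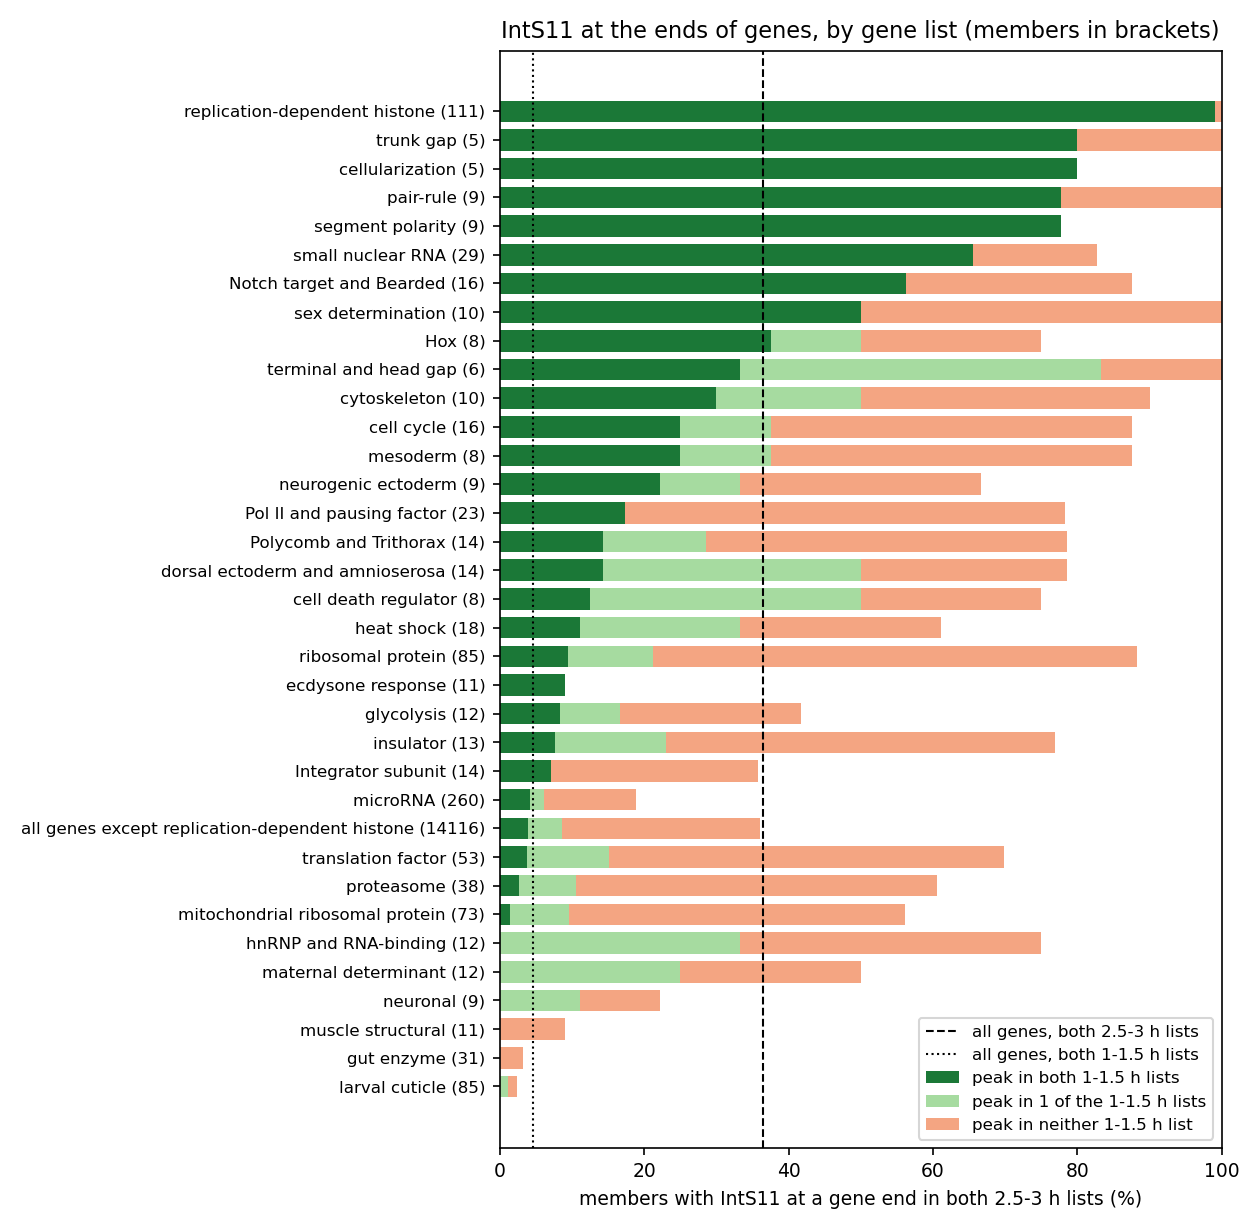
Share of the members of each gene list (members in brackets, lists of at least 5) with IntS11 at a gene end in both 2.5–3 h lists, split by colour into members with a peak in both, 1 or neither of the 1–1.5 h lists. Histone, trunk gap, cellularization, pair-rule and segment polarity genes lie at the top with mostly kept members, and the dashed and dotted lines mark all genes, 36.5% at 2.5–3 h and 4.65% at 1–1.5 h.

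Pol II lay at most gained regions before IntS11 was called there. Wild-type Pol II at 1–1.5 h had peaks in both lists at 74.97% of gained and 86.6% of kept regions. At 2.5–3 h the shares were 85.7% and 85.5%. In 2651 of the 3619 gained regions Pol II peaks stood in both lists of both stages (73.3%), and in 199 they appeared in both lists only at 2.5–3 h (5.50%), while 257 had no Pol II in any of the 4 lists. By gene, 91.4% of gained and 98.5% of kept genes had Pol II in both 1–1.5 h lists, against 10.7% of genes without IntS11 and 45.8% of all genes. Of the 6517 genes with Pol II in both 1–1.5 h lists, IntS11 was present in both lists at 74.3% at 2.5–3 h and 9.93% at 1–1.5 h. All 57 gained ribosomal protein genes and all 19 gained proteasome genes had Pol II in both 1–1.5 h lists. Where a region met early Pol II, the longest such peak was shorter at gained regions than at kept ones. The medians in the 2 lists were 887 and 836 bp at gained and 1700 and 1676 bp at kept regions. Over all Pol II peaks, with no longest peak taken, the medians were 696 and 688 bp. Longer regions, as the kept ones are, can meet more peaks and longer ones by position alone, and that part was not tested.

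Zelda lay at similar shares of gained and kept regions, and GAF lay at a smaller share of gained ones. Zelda at 1–1.5 h had peaks in both lists at 85.3% of gained and 88.0% of kept regions. GAF at 1–1.5 h had them at 53.5% of gained and 88.0% of kept regions, and GAF at 2.5–3 h at 62.5% and 92.1%. For pSer5 the shares at 1–1.5 h were 86.2% and 86.5%. Kept regions are longer and so meet more peaks by position alone, and that part of the GAF difference was not tested. Among genes with Pol II at 1–1.5 h, IntS11 was present at 2.5–3 h in 30.0% of the 456 that had Zelda in neither 1–1.5 h list and in 80.8% of the 5519 that had it in both. Larval Pol II, from wild type at 48AEL, had peaks in both lists at 39.8% of gained and 58.3% of kept regions.

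In embryos labelled Mutant, gained and kept IntS11 regions carried the other factors less often than in WT embryos, with lower shares at gained than at kept regions. Pol II at 2.5–3 h had peaks in both lists at 0.497% of gained regions in Mutant embryos, against 85.7% in WT embryos, and at kept regions in 15.9% against 85.5%. At 1–1.5 h the shares were 7.05% in Mutant against 74.97% in WT embryos at gained regions, and 44.9% against 86.6% at kept regions. Zelda at 2.5–3 h lay at 14.6% of gained regions in Mutant embryos against 83.1% in WT embryos, and at 53.5% of kept regions against 87.6%. For pSer5 at 2.5–3 h the shares were 16.9% against 92.9% at gained and 62.0% against 86.3% at kept regions. The Pol II lists at 2.5–3 h held 4497 and 5898 peaks in Mutant embryos and 9474 and 9071 in WT embryos, and the Zelda lists at that stage 4509 and 3478 in Mutant embryos and 10419 and 11362 in WT embryos. At 1–1.5 h, in contrast, the Pol II lists held 8821 and 8210 peaks in Mutant embryos and 7721 and 7096 in WT embryos, and the pSer5 lists at 2.5–3 h 9446 and 9055 in Mutant embryos and 9603 and 9384 in WT embryos. The lower shares were also seen where the Mutant lists held more peaks than the WT lists or nearly as many. The Mutant pSer5 lists at 2.5–3 h covered less DNA, however, 6.46 and 6.31 Mb against 19.3 and 19.1 Mb in WT embryos. For Pol II at 1–1.5 h the lengths were 8.41 and 7.27 Mb in Mutant and 7.38 and 6.69 Mb in WT embryos. Mutant peaks lay elsewhere, with 10.6% and 9.90% of the Pol II peaks at 1–1.5 h at a gene end, against 66.5% and 67.5% in WT embryos. Nor was the difference particular to IntS11 sites. Pol II at 2.5–3 h lay in both lists at 1.45% of all genes in Mutant and 51.8% in WT embryos. At genes without IntS11 it lay at 0.787% and 16.6%. Kept regions are longer than gained ones and so meet more peaks by position alone. That part of the difference between gained and kept regions was not tested, nor was the cause of the lower shares in Mutant embryos.

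**Figure D5:**
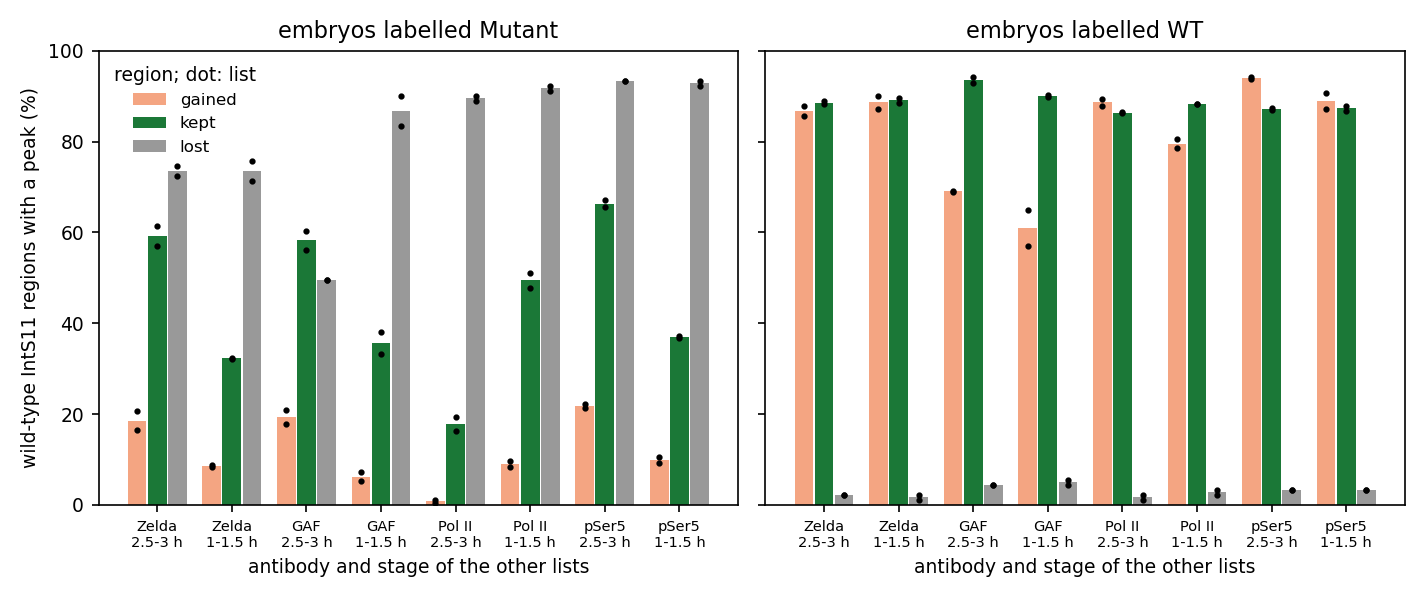
Percentage of wild-type IntS11 regions (gained, kept, lost) that overlap a peak of Zelda, GAF, Pol II or pSer5 in embryos labelled Mutant (left) and WT (right), with 2.5–3 h left of 1–1.5 h for each antibody; bars are means of 2 lists and dots are lists. In WT embryos gained and kept regions are mostly covered and lost regions are not, with GAF lower at gained regions, while in Mutant embryos lost regions are covered in 49.5% to 93.4% of cases.

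The 91 lost regions were unlike the rest. Of these, 66 lay between genes, and 46 lay on chromosome 4, on Y or within 2 Mb of the centromere end of an arm, 25 of them at the start of 3R. The longest was at 3R 25396–29938, with peaks of 4543 and 4174 bp at 1–1.5 h. Such windows held 2.70% and 3.13% of the peaks of the 2.5–3 h lists and 9.36% and 9.72% of those of the 1–1.5 h lists. Mutant embryos had Pol II at the lost regions in 87.9% (2.5–3 h) and 90.1% (1–1.5 h) of cases in both lists, against 1 and 2 of the 91 regions in WT embryos. The repeats in these windows make read placement uncertain, and its part in these regions was not tested. On the chromosome arms without these windows 45 regions were lost, 5.82% of the early regions there.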

How the data were processed

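Each deposited peak list holds a chromosome, a start and an end, with no score, height or count for a peak. Per the submitters' processing notes MACS2 2.2.7.1, deepTools 3.5.1, Bowtie2 2.2.5, Trimmomatic 0.39 and SAMtools 1.18 were used, with the build dm6. The calling threshold and the depth per library are not given in the sources used here, so no interval that needs depth is printed. Input lists and IntS11 immunoprecipitations from mislocalized embryos were not analysed here.

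Peaks on the 7 nuclear chromosomes and arms were used with Python 3.11.15, NumPy 2.4.6 and pandas 2.3.3, and figures were drawn with matplotlib 3.10.9. Peaks of the 2 lists of a stage were merged, and a region needed a peak of both lists; overlap meant at least 1 bp. The authors' peak lists name no genes, so 14227 RefSeq records of the same assembly (protein-coding, microRNA and small nuclear RNA genes) were used. The planned rule took gene starts; the table has no strand, so both gene ends with 500 bp either side were used instead. The stages were tested by exact permutation (two-sided) of their lists, on a log2 scale for numbers and lengths. The scripts were tested on simulated data. Genes named in the text follow a rule of peak length and of length ratio, over all genes and within each of 35 lists; a few more list members are named to show counts. For these, and for genes at the longest regions, the choice was made after their values were seen. Members and lists were chosen with earlier results of these data known. Of the list entries, 3 symbols matched no gene record. Alternatives were a 500 bp minimum length, equal numbers of the longest peaks, joining of close peaks, other windows, chromosome arms alone, leaving out each list, and a block by replicate number.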

Additional observations from a re-analysis of the deposited data

How the results depend on the processing

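Of the recomputed values 103 kept their direction and, for counts, stayed within 1.5 times or, for shares, within the 95% binomial interval, 31 moved and 0 reversed. For the ratios and differences of the stages only the direction was judged, and no p could fall below 0.333. The replicate block leaves these values unchanged by construction, and its rows are counted among the 103. With the longest peaks of each list in equal number, 304 regions were gained, 407 kept and 309 lost (33.1% of the 2.5–3 h and 37.7% of the 1–1.5 h regions), 546 genes were gained and 106 lost, and Pol II at 1–1.5 h lay at 90.8% of gained and 98.0% of kept regions. In that setting the log2 ratio of covered length was 1.55 and of median length 1.64, and the difference at gene ends 22.7 percentage points. With peaks of at least 500 bp, 381 regions were kept and 50 lost, 78.8% of the later regions were gained, 369 genes were kept, and Pol II lay at 84.9% of gained regions, as it did at 77.3% after joining peaks with gaps of up to 330 bp. On chromosome arms alone 45 regions were lost (5.82%) and the difference at gene ends was 10.4 points. Leaving out a list loosens the rule that both must hold a peak: 3874 to 5216 regions were then gained (78.0% to 80.0%), 741 to 1032 kept and 97 to 217 lost (11.2% to 15.4%), the highest loss being without replicate 2 of 1–1.5 h and 162 without its replicate 1. Genes gained were 4177 to 4697, kept 656 to 1016 and lost 2 to 5, with the 1016 kept without replicate 2 of 1–1.5 h, and Pol II lay at 63.7% to 76.2% of gained and 85.0% to 88.5% of kept regions. The log2 ratios ranged from 2.16 to 2.30 for peak number, 2.55 to 2.74 for covered length and 0.35 to 0.42 for median length, and the difference at gene ends from 11.8 to 15.2 percentage points. With a replicate block the values were unchanged, at 2.23, 2.65, 0.39 and 13.5 points, and the exact permutation p was 0.5, the smallest possible. Peak lengths of same-numbered lists did not deviate together (r = 0.03 over 724 kept regions). A shared collection need not show in peak lengths, so this does not settle whether the numbers pair the lists. The ratio of peak numbers has no value at equal numbers, and the planned promoter sequences were not run. The cause of the moves other than by construction was not tested.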

Other observations

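A stretch at the end of 3L (390–18723, dm6) without a gene in the table used here held IntS11 peaks of 17990 and 15813 bp at 2.5–3 h, against longest peaks of 3338 and 2871 bp among 8 and 6 separate ones at 1–1.5 h.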
